A study of Mus musculus with 2 samples.

Results

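The Dusp and Ptpn genes encode the dual-specificity phosphatases and the non-receptor tyrosine phosphatases. They were taken as every protein-coding gene of the mm9 annotation (GENCODE vM1) whose symbol is Dusp or Ptpn followed by a digit, which gave 41 of 22284 protein-coding genes, 24 Dusp and 17 Ptpn. A Tcf1 ChIP-seq peak was counted for a gene when its summit lay in the gene body or within 10 kb of either end, a stretch called the locus here. Of the 22286 deposited peaks, 81 were counted, each for 1 member only. High-confidence peaks are those with a fold enrichment of 4 or more that also meet the study's limits on p (1e-05) and q (0.05), and 69 of the 81 did.

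Binding was measured with an anti-Tcf1 antiserum in naïve CD8+ T cells sorted from mouse spleen as GFP+ TCRbeta+ CD62Lhi CD44lo-med cells, in 1 WT and 1 Tcf1-deficient library. After removal of duplicates, the WT library held 36938606 fragments and the Tcf1-deficient library 27625250. The labels give the deficient genotype as Tcf1-/-Lef1-/- and the series' design names hCD2-Cre, a transgene that acts mainly in mature T cells, with a Rosa26 GFP reporter, whereas the study's methods describe deletion of Tcf7, the gene of Tcf1, by Cd4-Cre, which already acts in the thymus. The sources therefore disagree on Lef1 and on the Cre of the control cells. The age and sex of the mice and the number pooled are not in the labels, and no value of the peak list allows the sorted cell type to be checked against marker expression.

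Tyrosine phosphorylation carries the signal from the T cell receptor, and phosphatases remove it at successive steps. The typical dual-specificity phosphatases, or MAP kinase phosphatases, dephosphorylate a threonine and a tyrosine in the activation loop of ERK, JNK or p38, and several of them are induced by the kinases they later switch off. The non-receptor tyrosine phosphatases act closer to the receptor and to cytokine receptors, where Ptpn22 and Ptpn6 restrain Lck, Zap70 and their substrates and Ptpn2 restrains Jak and Stat signalling. Tcf1 is a DNA-binding protein of the HMG family that recognises a short A and T rich core.

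Sequences under strong Tcf1 peaks of the 2 families are shown first, because the 3 tallest peaks without the exact Tcf/Lef core ATCAAAG were at Dusp22 and Ptpn22, and a Dusp10 peak with the Runx core is set beside them. They are read from mm9 on the plus strand, 50 bases to each side of the summit. Capitals mark TGTGGT, the shorter part of the Runx core, or its reverse complement, and in the Dusp10 sequence the full Runx core TGTGGTT in reverse complement. A Ptpn22 peak, the Dusp10 peak and the motif TGTGGT were added after the sequences were seen. Within 100 bp of the summit, TGTGGT was in 27.2% of the 81 peaks and 30.1% of all peaks, and TGTGGTT in 7.41% and 14.8%. A taller peak than that of Dusp10 without the Tcf/Lef or Runx core, of 149 fragments at Dusp11, is not printed.
Dusp22 intron peak (chr13:30773808-30773908): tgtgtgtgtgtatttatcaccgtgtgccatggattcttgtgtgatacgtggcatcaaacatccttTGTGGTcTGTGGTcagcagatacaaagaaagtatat
Ptpn22 start-site peak (chr3:103664084-103664184): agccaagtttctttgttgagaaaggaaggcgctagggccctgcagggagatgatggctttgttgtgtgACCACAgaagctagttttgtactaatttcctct
Ptpn22 intron peak (chr3:103672052-103672152): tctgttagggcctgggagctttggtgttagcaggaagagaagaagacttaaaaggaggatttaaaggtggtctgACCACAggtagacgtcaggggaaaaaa
Dusp10 upstream peak (chr1:185829675-185829775): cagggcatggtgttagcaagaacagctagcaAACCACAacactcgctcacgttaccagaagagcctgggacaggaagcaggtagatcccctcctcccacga

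The exact core was found, on either strand and within 100 bp of the summit, at 9 of the 81 peaks. These 9 stretches are given next in order of fold enrichment, with 30 bases to each side of the core, or 11 at the Ptpn6 locus where the stretch lies in an untranslated exon of the neighbour Grcc10. Capitals mark the core, ATCAAAG, or its reverse complement, CTTTGAT.
Ptpn6 locus, Grcc10 start-site peak (chr6:124691157-124691185): accagagaaggATCAAAGcccctctcaca
Dusp13 start-site peak (chr14:22569630-22569696): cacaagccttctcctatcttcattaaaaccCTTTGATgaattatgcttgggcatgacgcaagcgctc
Dusp22 second intron peak (chr13:30777919-30778033): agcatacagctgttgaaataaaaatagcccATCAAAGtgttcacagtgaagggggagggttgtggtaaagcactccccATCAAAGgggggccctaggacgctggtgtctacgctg
Dusp10 intron peak 6 (chr1:185860490-185860574): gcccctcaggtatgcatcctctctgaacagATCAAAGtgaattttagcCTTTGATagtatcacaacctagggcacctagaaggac
Ptpn14 intron peak 3 (chr1:191655070-191655136): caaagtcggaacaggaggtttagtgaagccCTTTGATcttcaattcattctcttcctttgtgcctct
Ptpn22 intron peak 3 (chr3:103665247-103665313): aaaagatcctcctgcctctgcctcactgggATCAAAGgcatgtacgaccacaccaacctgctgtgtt
Dusp10 intron peak 3 (chr1:185840550-185840616): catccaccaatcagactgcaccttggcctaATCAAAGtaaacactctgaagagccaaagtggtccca
Dusp5 intron peak 2 (chr19:53604884-53604950): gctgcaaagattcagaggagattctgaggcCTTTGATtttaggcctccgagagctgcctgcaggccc
Dusp10 intron peak 7 (chr1:185861744-185861810): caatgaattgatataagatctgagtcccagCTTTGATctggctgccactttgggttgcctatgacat

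Of the 41 genes, 29 held a deposited peak, or 70.7% (Wilson 95% interval 55.5 to 82.4), against 52.5% of all protein-coding genes, which is below that interval. This comparison is not made at like locus length. Intervals in this text cover counting error only, since 1 library per group leaves no replicate and genes and peaks are not replicates. High-confidence peaks were present at 26 members (63.4%, 48.1 to 76.4), against 48.7% of all protein-coding genes, a background inside that interval. The 2 families had almost the same share, 17 of 24 Dusp genes (70.8%, 50.8 to 85.1) and 12 of 17 Ptpn genes (70.6%, 46.9 to 86.7). Members with 4 or more peaks were Dusp10, Dusp4, Dusp2 and Dusp5 and Ptpn22, Ptpn14, Ptpn6 and Ptpn1, 8 genes or 19.5%, where 6.92% of protein-coding genes had as many. A strongest peak of 100 or more fragments was found at 7 members (17.1%), 5 Dusp and 2 Ptpn genes, and at 9.52% of protein-coding genes. The median strongest pileup over genes with a peak was 50 fragments for all protein-coding genes. It was lower for the members together (43.0) and for Dusp genes (41.0), and the same for Ptpn genes (50).

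**Figure D1:**
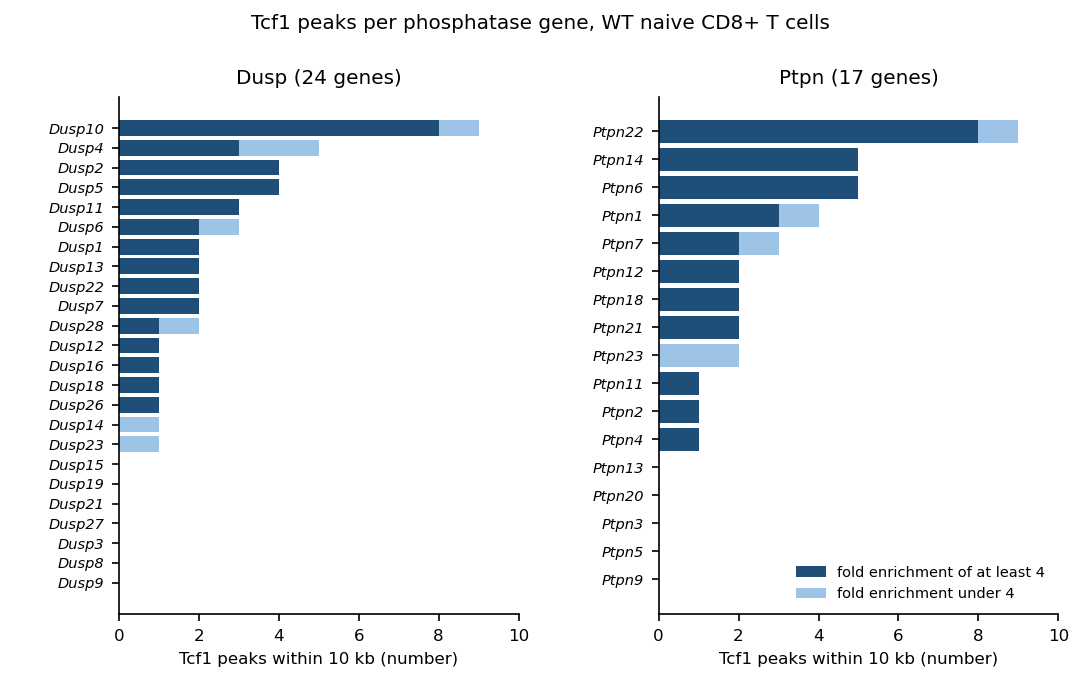
Number of Tcf1 peaks with a summit in the gene or within 10 kb, for the 24 Dusp genes (left) and 17 Ptpn genes (right), with dark bars for a fold enrichment of at least 4 and light bars for less. Dusp10 and Ptpn22 stand out with 9 peaks each, and 12 genes have no bar.

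Dusp10 and Ptpn22 had 9 peaks each, a number reached by 184 protein-coding genes (0.826%). The median was 1 peak per Dusp gene (interquartile range 0 to 2.25) and 2 per Ptpn gene (0 to 3), with 1 (0 to 2) over all protein-coding genes. With high-confidence peaks alone, or with each peak given to its nearest protein-coding start only, both families had a median of 1, and at a fold enrichment of at least 8 both had 0, so the medians set no firm order. The median locus was 32.3 kb for Dusp and 79.1 kb for Ptpn genes, and the 44 Dusp peaks came to 4.92 per 100 kb (Poisson interval 3.58 to 6.61), the 37 Ptpn peaks to 2.39 (1.68 to 3.30). All protein-coding loci had 1.72 peaks per 100 kb, a value that went from 2.84 and 2.92 in loci of 20 to 30 and 30 to 50 kb to 0.881 in loci of 100 kb or more. In loci of 30 to 50 kb the Dusp value, 3.96 over 11 genes, was below the Ptpn value, 8.02 over 4 genes, and in loci of 50 to 100 kb the order was 4.79 over 3 genes and 2.70 over 9. The difference in density between the families was thus not of 1 direction at like length, and it was not tested.

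**Figure D2:**
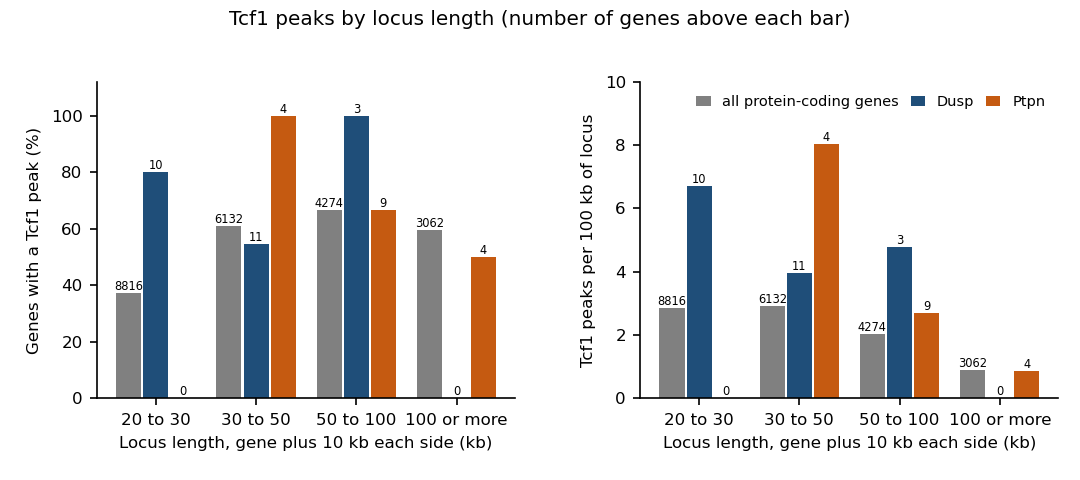
Share of genes with a Tcf1 peak (left, %) and Tcf1 peaks per 100 kb of locus (right), in 4 ranges of locus length, for all protein-coding genes, Dusp and Ptpn genes, with the number of genes above each bar. Among the shortest loci 80.0% of Dusp genes and 37.3% of all genes have a peak, and no Ptpn gene is that short.

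The 4 inducible nuclear MAP kinase phosphatases, Dusp1, Dusp2, Dusp4 and Dusp5, all held peaks, 15 in total, of which 13 were high-confidence. With 4 genes the share has an interval of 51.0 to 100%, which contains the 52.5% of all protein-coding genes. Their loci are short, 22.2 to 33.3 kb, and came to 13.5 peaks per 100 kb (7.56 to 22.3), against 2.84 and 2.92 in all loci of 20 to 30 and 30 to 50 kb. Each of the 4 had a peak within 1 kb of its own start site, as did 24 of the 41 members (58.5%, 43.4 to 72.2) and 36.7% of all protein-coding genes.

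Dusp2, a phosphatase abundant in activated lymphocytes, had 4 peaks. The strongest lay 1.92 kb upstream of the gene (chr2:127159660-127160324) with a pileup of 130 WT fragments at the summit (Poisson interval 109 to 154) and a fold enrichment of 20.4. The others had pileups of 33 at 0.948 kb upstream, 43 at the start site and 39 downstream, and all 3 intervals lay below that of the upstream peak. The downstream summit fell in the neighbour Astl, and all 4 were also within 10 kb of another protein-coding gene.

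Dusp1, the immediate-early phosphatase of p38, JNK and ERK, had 2 peaks of like height. The start-site peak (chr17:26644817-26646504) had a pileup of 89 and a fold enrichment of 14.0 (11.3 to 17.2), and at 1688 bp was the widest of the 81. Only 0.637% of all deposited peaks were as wide. The other peak, 5.14 kb from the 5′ end and beyond the 3′ end of the gene, had a pileup of 81, a fold enrichment of 12.8 and the Runx core near its summit.

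Dusp5, which holds inactive ERK in the nucleus, had its tallest peak at the start site, with a pileup of 76 and a fold enrichment of 8.53 (6.75 to 10.7). The control level there, the fragments expected from the Tcf1-deficient library, was 8.02, the highest at any Dusp peak. Among its 3 intron peaks, with pileups of 33, 70 and 33, the peak of 70 had the higher fold enrichment of 11.1 (8.66 to 13.9), with an interval that overlaps that of the start site, and the one 1.29 kb into the gene carried the Tcf/Lef core 28 bp from the summit. Dusp4, which like Dusp1 acts in the nucleus, had 5 weak peaks with pileups of 22, 26, 37, 33 and 23 from 5′ to 3′. The tallest lay at the start site, and the first and the last were under the fold minimum.

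Of the 3 cytoplasmic ERK phosphatases, 2 held 5 peaks in all. Dusp6, a negative feedback gene of the ERK pathway, had pileups of 32 at 1.66 kb upstream, 37 at the start site and 23 downstream, all with intervals that overlap. Dusp7 had 2 peaks, with pileups of 31 and 34. Dusp9, on chromosome X, had no peak.

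Dusp10 and Dusp16, which act on JNK and p38, differed in number. Dusp10 (ENSMUSG00000039384.8, chromosome 1, 185837181 to 185899515, plus strand) had 9 peaks over its locus of 82.3 kb, with pileups from 5′ to 3′ of 138, 27, 35, 142, 103, 61, 23, 27 and 33, and 4 of the 9 were also within 10 kb of another protein-coding gene. The 3 tallest were an intergenic peak 7.46 kb upstream (chr1:185829239-185830250, fold enrichment 21.7, interval 18.2 to 25.6), an intron peak 11.5 kb inside, nearer to the start of 1700056E22Rik (chr1:185848277-185849483, 22.3, 18.8 to 26.2), and a peak 52 bp from an internal start site 21.0 kb inside (16.2, 13.3 to 19.6). The pileups of the first pair, 138 (116 to 163) and 142 (120 to 167), could not be told apart at this depth, the third was 103 (84.1 to 125), and none carried the core. The 3 peaks with the core had pileups of 35, 61 and 23. In the peak of 61 it occurred as a pair in opposite directions, the nearer copy 3 bp from the summit, whereas in the other 2 it lay 97 and 70 bp away. At the 5′ start site itself there was only the peak of 27, 947 bp inside. Dusp16, with a locus of 97.2 kb, had 1 peak, of pileup 41, at the start site, and Dusp8 had none.

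**Figure D3:**
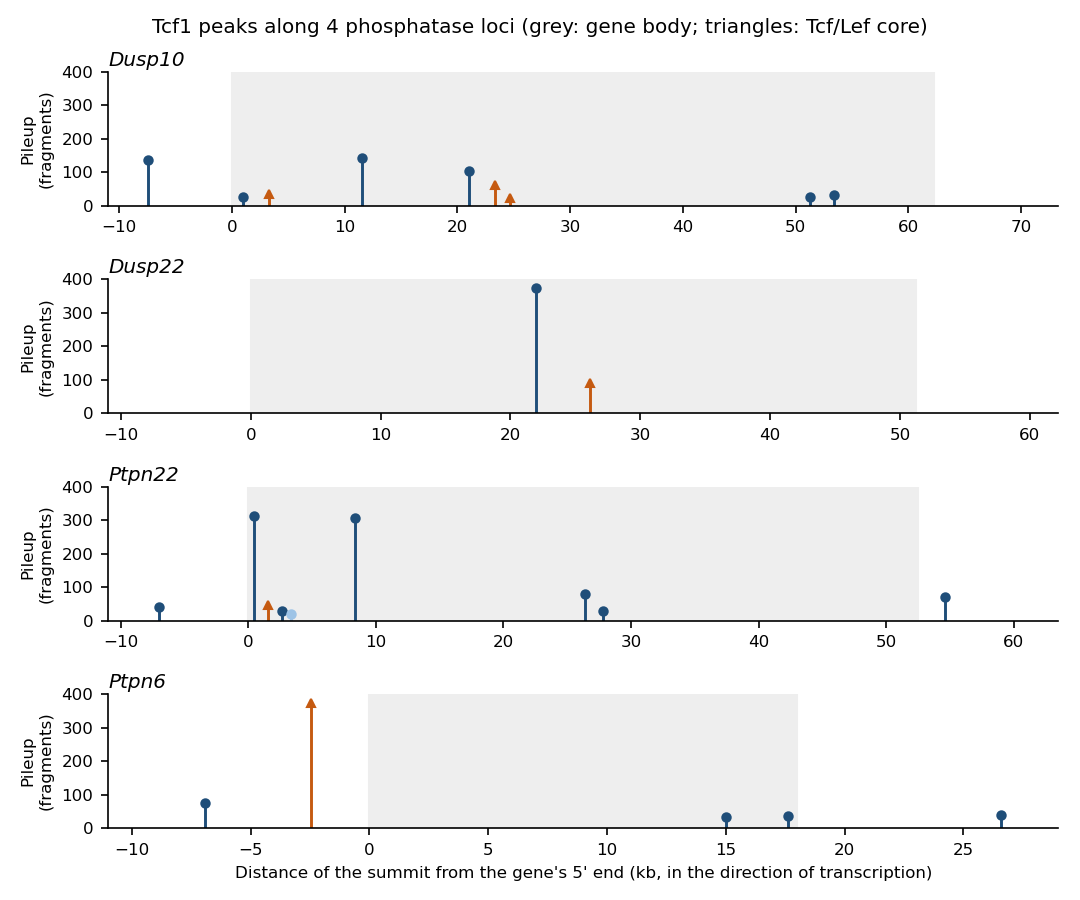
Tcf1 peaks along the Dusp10, Dusp22, Ptpn22 and Ptpn6 loci, with the distance of each summit from the gene's 5′ end (kb) on the horizontal and its pileup (WT fragments) on the vertical axis, grey for the gene body, triangles for the Tcf/Lef core and light blue for a fold enrichment under 4 without it. In Dusp22 the tall peak has no core and the neighbour of pileup 91 has it, and in Dusp10 the 3 triangles are lower than the 3 tallest peaks.

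Of the 14 atypical dual-specificity phosphatases, 9 held 14 peaks (64.3%, 38.8 to 83.7, an interval that contains the share of all protein-coding genes). A peak of 100 or more fragments was found at 3 of the 14, Dusp22, Dusp13 and Dusp11 (21.4%, against 9.52% of all protein-coding genes). The other 6, Dusp12, Dusp14, Dusp18, Dusp23, Dusp26 and Dusp28, had 1 or 2 peaks with pileups of at most 41.

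Dusp22 (ENSMUSG00000069255.6, chromosome 13, 30751868 to 30803100, plus strand), a phosphatase that can inactivate Lck, carried the highest fold enrichment of any Dusp or Ptpn peak. The peak lay in an intron, 22 kb from the 5′ end (chr13:30773547-30774285), with a pileup of 373 (336 to 413), a fold enrichment of 58.3 (52.5 to 64.5) and rank 58 among all 22286 peaks by fold enrichment. It held neither the exact Tcf/Lef, Runx nor ETS core within 100 bp, and the printed sequence shows TGTGGT as a direct pair with 1 base between. A second intron peak, 26.1 kb from the 5′ end (chr13:30777737-30778213), had a pileup of 91, a fold enrichment of 13.1 (10.6 to 16.1) and 2 copies of the Tcf/Lef core. Dusp22 had no peak within 1 kb of its own start site.

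Dusp13 and Dusp11 also had a tall peak, nearer to a neighbour's start in Dusp13 and at the gene's own start in Dusp11. Dusp13, known from testis and muscle, had a peak of pileup 150 and fold enrichment 23.5 (19.9 to 27.6) with the core 9 bp from the summit (chr14:22569307-22569963). This summit was 731 bp from a Dusp13 start site and 81 bp from that of Samd8, and the weaker peak of 37 fragments was also nearer Samd8. Dusp11, an RNA phosphatase, had pileups of 97 at 4.48 kb upstream, 149 at 385 bp from a start site and 42 beyond its 3′ end. The peak of 149 held the ETS core, and at 1052 bp it was among the 10 peaks of the 81 with a width of 1000 bp or more (12.3%, against 6.33% of all deposited peaks).

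Among the Ptpn genes, Ptpn22 (ENSMUSG00000027843.7, chromosome 3, 103663718 to 103716170, plus strand) had both 9 peaks and a pair of pileups among the 4 highest of the 81, and 6 of the 9 were also within 10 kb of another protein-coding gene, the tallest among them. Ptpn22 encodes a PEST-type phosphatase that dephosphorylates Lck and Zap70. Its 9 pileups were 42, 314, 48, 28, 20, 307, 79, 30 and 70 from 5′ to 3′. The start-site peak (chr3:103663070-103664519), 69 bp from an annotated start, had a fold enrichment of 49.1 (43.8 to 54.8), and the intron peak 8.38 kb inside (chr3:103671457-103672535) one of 40.1 (35.7 to 44.8), with a control level of 6.69 against 5.42 at the start site. Their pileups, 314 (280 to 351) and 307 (274 to 343), could not be told apart at this depth. Both lacked the exact Tcf/Lef core, and the start-site peak held the full Runx core within 100 bp of its summit but outside the printed stretch. The Tcf/Lef core of this locus lay in the peak of 48, 24 bp from its summit. The peak of 79 was exonic, the only exonic one of the 81, and the last, of 70, was 181 bp from the start site of the neighbour Rsbn1. The other PEST-type genes had 2 peaks each, Ptpn12 with pileups of 41 at the start site and 51 in an intron and Ptpn18 with 25 and 49.

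Ptpn6 (ENSMUSG00000004266.9, chromosome 6, 124670725 to 124688732, minus strand), an SH2-domain phosphatase recruited to inhibitory receptors, had 5 peaks in a gene-dense stretch. The tallest of all 81 was 2.44 kb upstream of Ptpn6 (chr6:124690243-124691769), with a pileup of 375 (338 to 415), but 90 bp from the start site of Grcc10. It held the Tcf/Lef core 2 bp from the summit and the ETS core, and its control level of 9.36 was the highest of the 81, so that its fold enrichment was 36.3 (32.7 to 40.1), below that of the Dusp22 peak although the pileups of both were within counting error. The other peaks of the locus had pileups of 74 at the start site of Atn1, 38 at that of Emg1, and 32 and 36 within Ptpn6. All 5 were also within 10 kb of another protein-coding gene, and the nearest protein-coding start was that of a neighbour for 3 of them. Ptpn11, the other SH2-domain member, had 1 peak, of pileup 31, at its start site.

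**Figure D4:**
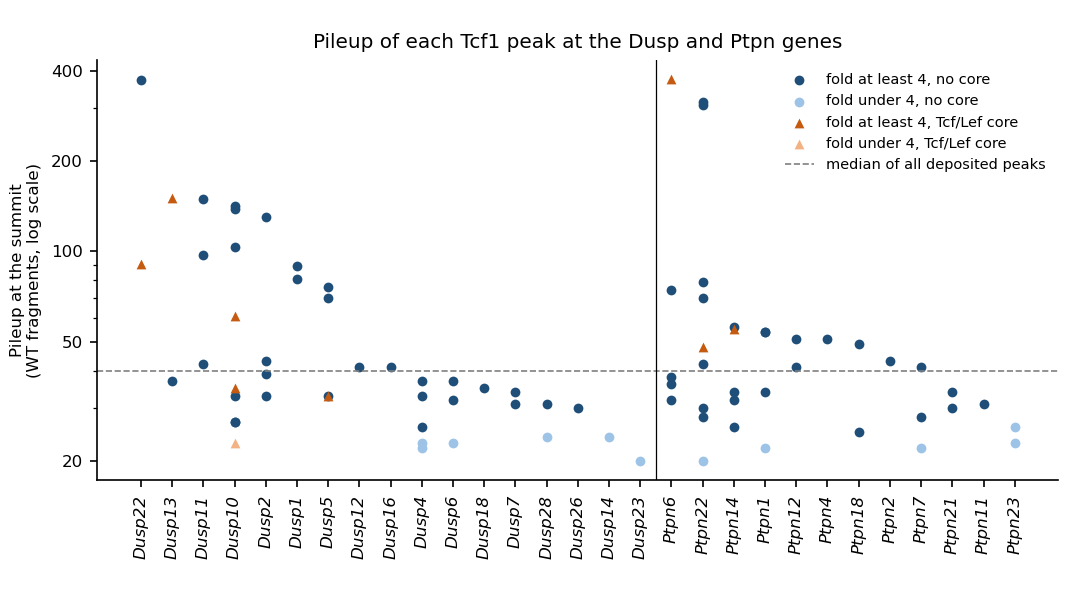
Pileup at the summit (WT fragments, log scale) of each of the 81 peaks, by gene, with Dusp genes on the left and Ptpn genes on the right of the line, triangles for the Tcf/Lef core and light colours for a fold enrichment under 4. Only Dusp22, Ptpn6 and Ptpn22 have peaks above 150, and the dashed line marks the median of 40 over all deposited peaks.

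The remaining Ptpn genes had lower peaks. Ptpn14, a FERM-domain phosphatase, had 5 peaks, all in introns, with pileups of 34, 56, 55, 26 and 32 at 67.7 to 139 kb from its 5′ end, and the peak of 55 carried the core 11 bp from the summit. Ptpn1, a phosphatase of Jak and insulin signalling, had pileups of 22, 54, 34 and 54, with the first peak of 54 at a start site together with the ETS core. Ptpn2, its closest relative, had 1 peak at the start site on chromosome 18, with a pileup of 43 and a fold enrichment of 6.86 (5 to 9.18), that also held the ETS core and was 1326 bp wide. Ptpn7, which inactivates ERK and p38 in blood cells, had pileups of 28, 41 and 22, the last 85 bp from the start site of Arl8a. Ptpn4 had 1 peak, of pileup 51, at the start site of a gene 180 kb long. Ptpn21 had pileups of 34 and 30. Ptpn23, which acts in endosomal sorting, had pileups of 26 and 23, both under the fold minimum, with fold enrichments of 3.85 and 3.74.

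No deposited peak was found within 10 kb of 12 members, Dusp3, Dusp8, Dusp9, Dusp15, Dusp19, Dusp21 and Dusp27 and Ptpn3, Ptpn5, Ptpn9, Ptpn13 and Ptpn20. The nearest summit lay from 10.9 kb away for Ptpn9, within an intron and 1.60 kb from a start site of Sin3a, to 574 kb away for Dusp21 on chromosome X. For 10 of the 12 the nearest summit was closest to the start of another protein-coding gene, and for Ptpn3 and Ptpn13 it was intergenic, 48.9 and 47.2 kb from the member's own start. A peak too weak for the limit of the caller would not be listed, so these loci are not shown to be unbound.

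The 81 peaks were close to the whole list in most of what the choice of genes did not fix. Their median pileup was 37.0 (interquartile range 30 to 56.0), against 40 (29.0 to 65.0), and the median fold enrichment 5.76 against 6.09. High-confidence peaks made up 85.2% and 85.4%, and 10 of the 81 had a pileup of 100 or more, against 12.9% of all peaks. Around the fold minimum, the peaks of Dusp14 and Dusp28 at 3.90 were just below it and a Ptpn18 peak at 4.05 just above. At 69 of the 81 peaks (85.2%) the control lay at the genome-wide floor of 5.42 fragments, so that fold enrichment there followed the WT pileup alone.

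Promoters, the 1 kb on each side of any annotated start, held 37 of the 81 peaks (45.7%, 35.3 to 56.5), against 39.2% of all deposited peaks, a share inside the interval. Of all 81, 29 were also within 10 kb of a protein-coding gene that is no member. Of the promoter peaks, 27 were within 1 kb of the member's own start and 10 only within 1 kb of another gene's start. The 27 include both Dusp13 peaks, which were nearer to the start of Samd8. The families were alike, with 20 of 44 Dusp peaks (45.5%) and 17 of 37 Ptpn peaks (45.9%). Outside promoters, Dusp had 14 intron and 10 intergenic peaks and Ptpn 14 intron, 1 exon and 5 intergenic peaks. The upstream flank held 17 Dusp and 8 Ptpn peaks, the gene body 20 and 24, and the downstream flank 7 and 5.

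The Tcf/Lef core was in 11.1% of the 81 peaks (5.96 to 19.8) and in 9.76% of all deposited peaks, a share inside the interval, with 6 of 44 Dusp peaks (13.6%) and 3 of 37 Ptpn peaks (8.11%). By position, 7 of the 28 intron peaks had the core (25%, 12.7 to 43.4), against 13.5% of all intron peaks, which is inside that interval, as had 2 of the 37 promoter peaks (5.41%, against 4.87% of all promoter peaks) and 0 of the 15 intergenic ones, which allows a share of up to 20.4% and is set against 12.1% of all intergenic peaks. All motifs were searched as exact strings on both strands within 100 bp of the summit. Variants of the Tcf/Lef core were not scored, whereas the paper scored peaks with a position-weight matrix. A peak without the exact core can therefore hold a related site. The core read backwards, GAAACTA, was in 0 of the 81, which allows up to 4.53%, and in 2.41% of all peaks. The Runx core TGTGGTT was in 6 (7.41%, 3.44 to 15.2), against 14.8% of all peaks, also inside the interval. By position, it was in 2 of the 37 promoter peaks (5.41%, against 5.88% of all promoter peaks), 3 of the 15 intergenic peaks (20%, against 19.8%) and 1 of the 28 intron peaks (3.57%, 0.633 to 17.7, against 21.2%), and the intron share was the only one of these 3 whose interval lay below that of all peaks of its class. The shorter TGTGGT, which every TGTGGTT contains, was in 22 (27.2%, 18.7 to 37.7) and in 30.1% of all peaks. The ETS core CGGAAGT was in 6 (7.41%), against 6.50% of all peaks, and of these 5 were in promoters (13.5%, against 12.6% of all promoter peaks).

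T cell tyrosine kinases and substrates, MAP kinases and genes named Ptpr were counted in the same way. Of all protein-coding genes, 52.5% had a peak and 48.7% a high-confidence peak, with 1.72 peaks per 100 kb. All 20 of a list of T cell tyrosine kinases and substrates held a high-confidence peak, with a median of 5 peaks per gene and 8.34 per 100 kb (6.96 to 9.92). The lists were chosen with earlier results of these data known, so these values describe the list and test nothing. Jak1, a cytokine receptor kinase, had 16 peaks and Stat5b, a transcription factor of cytokine signalling, 11, with highest pileups of 391 and 277. Of the 13 MAP kinases, 9 held a peak (69.2%, 42.4 to 87.3), with 1.87 per 100 kb (1.13 to 2.92), and both intervals contain the value of all protein-coding genes. Mapk12 and Mapk14, both of the p38 group, had 4 each and Mapk6 had 3, with highest pileups of 168, 85 and 58. Of 22 genes named Ptpr, nearly all receptor-type tyrosine phosphatases, 12 held a peak (54.5%, 34.7 to 73.1, an interval that contains the share of all genes), at 0.481 per 100 kb in loci with a median of 170 kb. Ptprc, the gene of CD45, had 12 peaks and a highest pileup of 500, Ptpre had 7 and 429, and Ptprk 7 and 194. Ptprcap, which encodes a partner of CD45 rather than a phosphatase, is in this count with 2 peaks. The Dusp and Ptpn genes together, at 3.32 peaks per 100 kb (2.64 to 4.12), had a median locus of 38 kb, against 59.7 kb for the MAP kinases and 67.8 kb for the tyrosine kinase list, so the densities of these lists are not compared at like length.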

How the data were processed

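Per the labels and file headers, the authors aligned reads to mm9 (Bowtie2 version 2.2.5) and called peaks from read pairs with MACS2 (version 2.1.1.20160309, p limit 1e-05, 1 fragment kept per position), taking WT as treatment and Tcf1-deficient cells as the control. The deposited signal (pileup) is a whole number of WT fragments over the summit, although the header speaks of scaling, and the deposited fold enrichment is a ratio to the local control level. The deposited −log10 p and −log10 q come from a Poisson model of the same values, q being given although the header says that it was not calculated. This p compares 2 libraries, not genotypes. The deposited positions are 1-based, and widths are in bp. The control level was computed back as (pileup + 1)/fold enrichment − 1.

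Genome NCBIM37, which is mm9, and GENCODE vM1 were used. The 2 overlapping Dusp8 entries were counted as 1 gene. Counts, exact Poisson and Wilson 95% intervals were computed with Python 3.11.15 and scipy 1.17.1, and no test was run. Fold intervals carry the counting error of the WT pileup only. Assignment and motif search were tested on simulated data. Genes to be described with values were those with 4 or more peaks, a pileup of at least 100 or the Tcf/Lef core. The others are accounted for by class, and values given for them, such as those of Dusp1, were chosen after they were seen. The sequences printed are those with the core and the strongest without it in each family, to which a Ptpn22 and a Dusp10 peak and the motif TGTGGT were added after the sequences were seen. Members and lists were chosen with earlier results of these data known. Alternatives were other flanks, fold minimums, promoter widths, motif windows and ways to assign a peak. Gene tables on GRCm38 were left out. From each pathway list the 3 genes with most peaks were to be given with values. Those of 1 such gene are not reported here, and it stays in its list's totals.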

Additional observations from a re-analysis of the deposited data

How the results depend on the processing

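Across 9 values and 65 alternatives, 57 stayed within the value's 95% interval or, for counts of genes, within 1.5 times the value, and 8 moved. In gene bodies alone, 9 Dusp genes held a peak. At a fold enrichment of at least 8, 7 Dusp and 6 Ptpn genes did, and the density was 1.57 and 0.776 peaks per 100 kb. With flanks of 50 kb the Dusp density was 2.81 and the median Ptpn gene had 4 peaks. With promoters of 2.5 kb on each side their share was 60.5%. These moves follow from the stretch or the peaks that each setting takes in. The Ptpn density was below the Dusp density in all 7 alternatives run, none of which held locus length constant. The tallest peak by pileup was at the Ptpn6 locus (375), and by fold enrichment, by q and in gene bodies alone it was that of Dusp22 (373). The pileups differ by less than counting error. The fold enrichments were 36.3 (32.7 to 40.1) and 58.3 (52.5 to 64.5), and this gap came from the control levels of 9.36 and 5.42. The counting error of the control is not in these intervals, so a fold difference beyond counting error is not shown. No paired analysis was possible because each group has 1 library, no replicate could be left out, and at the control floor a peak needed 25 fragments to reach the fold minimum.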
